A study of Mus musculus with 9 samples.

Results

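The genes described here are the ErbB receptor tyrosine kinases (Egfr, Erbb2, Erbb3 and Erbb4), the LRIG membrane proteins (Lrig1, Lrig2 and Lrig3), the docking proteins Gab1 and Gab2, and Erbin, which the array calls ERBB2IP. They are 10 genes with 18 probes, of 45281 probes in all, and were taken by their names on the array. The set was put together because Gab1, Lrig1 and Erbin are lower in the dorsal region. For all members every difference that involves dorsal is therefore given as a description. Intervals and counts of members past a test limit in those contrasts restate the choice, and nothing is read from them. Of the 18 probes, 10 probes of 8 genes were bright enough to test and 8 were not.

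RNA came from the brainstem of male mice aged 8 weeks, all Chat-Cre:Ai9. These mice carry Cre recombinase under Chat, whose product is the enzyme that makes acetylcholine, and Ai9, a reporter for the red protein tdTomato that needs Cre, so there was no comparison of genotypes. The labels name 3 regions (dorsal, ventral and target) with 3 arrays each. They do not say what the target region was or how tissue was taken, and nothing in them says that cells were sorted. Column names of the deposited tables number the mice, so each mouse gave 1 array of every region, and mice are called by that number below.

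ErbB receptors sit in the cell membrane, bind growth factors of the EGF and neuregulin families, pair with each other and phosphorylate their own tails. Adaptors such as GAB1 are recruited to the active receptors and pass the signal to the PI3 kinase and RAS-ERK pathways, while LRIG1 binds the receptors and promotes their breakdown. Erbin is a scaffold with leucine-rich repeats and a PDZ domain that binds ERBB2. In the nervous system neuregulin and ErbB signalling is known for its part in the development of glia, myelin and synapses.

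Levels are log2 intensities after background correction and quantile normalization, and differences are on the same log2 scale, with their standard errors (SE) from limma. A probe counts as above background on an array when its detection p is below 0.05, and it was tested when this held on at least 3 of the 9 arrays. A probe or gene is said to pass at a limma adjusted p below 0.05 over all probes tested. A level of 1 probe cannot be set against the level of another, so genes are compared by their differences between regions.

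Between 16703 and 19945 probes were above background on an array, and 20461 were tested. Over these, 1632 probes passed between dorsal and ventral, 12 between target and dorsal, and 365 between target and ventral. In a fit with a term for each mouse (blocked by mouse) the last 2 counts were 3 and 154. Centring arrays on their medians in place of quantile normalization moved the median difference of all probes from 0.04 to 0.36 for dorsal minus ventral and from -0.02 to -0.35 for target minus dorsal. The share of passing probes that were higher moved with it, from 50.9% to 84.2% and from 75.0% to 17.6%. Marker genes of the brainstem were measured for 5 of 5, and those of forebrain and cerebellum for 0 of 4, since none of the latter was bright enough to test.

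Gab1, Lrig1 and Erbin are each read by a probe that was dimmest in dorsal, brightest in ventral and in between in target. The other tested probes did not share this order. Erbb4 and Gab2 had their lowest mean in ventral, Lrig2 and Egfr differed by at most 0.41 between any pair of regions (0.76 with arrays centred on their medians), and Erbb2 was never above background. Between target and ventral, the pair of regions without dorsal, Gab1 and Lrig1 were lower in target and passed the test, which is 2 of the 10 tested member probes, beside 1.78% of all tested probes. Blocked by mouse only Gab1 passed, 1 of 10 beside 0.753%. That contrast shares its ventral arrays with dorsal minus ventral, which chose the genes, and its values for Gab1 and Erbin were known when the genes were chosen, so these counts are not independent of the choice. In bulk tissue, fewer cells of a type and less RNA per cell cannot be told apart, and this holds for every difference below.

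**Figure D1:**
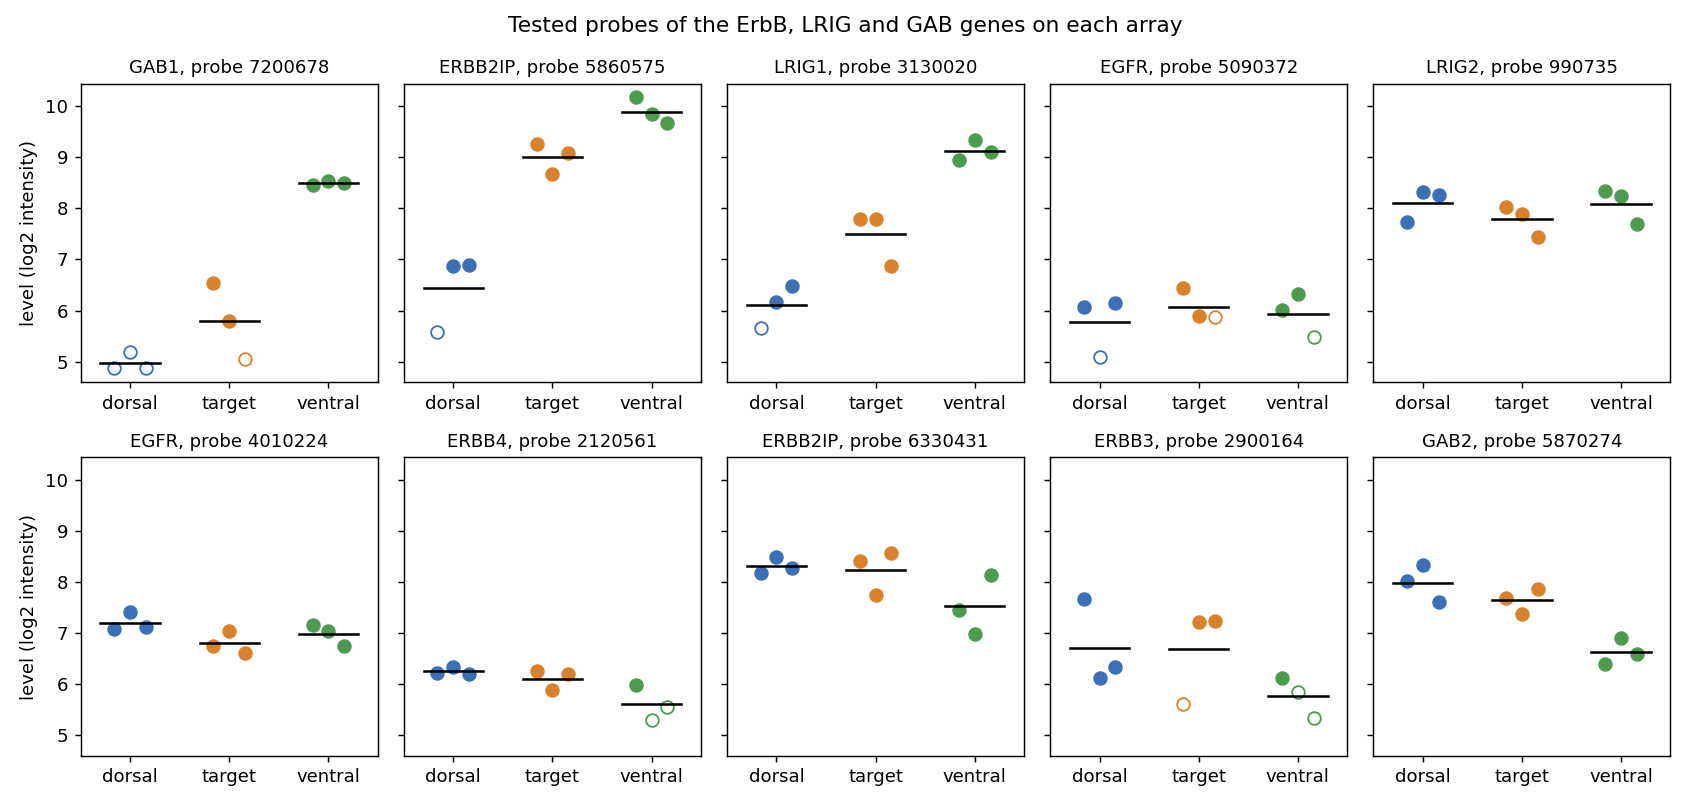
Log2 intensity of each of the tested member probes on each array, by region, with filled points for arrays above background, open points for arrays that were not, and a black line for the mean of 3 arrays. GAB1, LRIG1 and ERBB2IP probe 5860575 rise from dorsal through target to ventral, and GAB2 is lowest in ventral.

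The promoters of these 3 genes are shown because their probes share that order of regions. Each line holds the 250 bases before the annotated start, on the gene's own strand, from RefSeq on build GRCm38.p6, with every GC box on the printed strand (GGGCGG, a motif that factors of the SP family are known to bind) in capitals. The windows are chr8:80880520-80880769 for Gab1, chr6:94700146-94700395 for Lrig1 and chr13:103920587-103920836 for Erbin, all 3 on the minus strand.
Gab1: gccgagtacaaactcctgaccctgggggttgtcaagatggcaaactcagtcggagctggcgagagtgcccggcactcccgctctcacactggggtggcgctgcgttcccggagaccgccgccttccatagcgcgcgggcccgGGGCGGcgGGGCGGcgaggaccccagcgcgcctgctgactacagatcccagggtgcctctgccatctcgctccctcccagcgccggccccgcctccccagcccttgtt
Lrig1: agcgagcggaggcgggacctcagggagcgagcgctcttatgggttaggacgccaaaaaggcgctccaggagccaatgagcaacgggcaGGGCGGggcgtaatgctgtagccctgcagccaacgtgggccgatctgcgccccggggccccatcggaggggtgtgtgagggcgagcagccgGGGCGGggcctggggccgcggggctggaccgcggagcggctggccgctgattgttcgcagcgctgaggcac
Erbin: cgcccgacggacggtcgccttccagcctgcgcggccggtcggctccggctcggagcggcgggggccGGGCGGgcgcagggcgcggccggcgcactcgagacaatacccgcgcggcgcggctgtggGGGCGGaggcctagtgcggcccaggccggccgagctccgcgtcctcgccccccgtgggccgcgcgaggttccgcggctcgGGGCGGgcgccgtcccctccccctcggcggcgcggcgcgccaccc

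Searched on both strands with overlaps counted, the GC box occurred 2 times in the Gab1 window, 2 times in that of Lrig1 and 3 times in that of Erbin. It occurs in 32.7% of the 32851 mouse promoter windows of this length. A CCAAT box was found 1 time in the Lrig1 window and not in the Gab1 and Erbin windows, against 33.8% of all windows. The motifs TATAAA and TGACGTCA, in 12.4% and 1.55% of all windows, were not in these 3. The CpG dinucleotides numbered 24 in the Gab1 window, 26 in that of Lrig1 and 49 in that of Erbin, where the median window has 6. Of the 10 member genes 8 had a promoter entry. Erbb3 and Gab2 were not among them. Among the other members with an entry, the Lrig2, Lrig3 and Egfr windows each held the GC box 1 time and those of Erbb2 and Erbb4 did not hold it. The Lrig3 window had 27 CpG dinucleotides, more than Gab1 or Lrig1. Lrig2, Egfr and Erbb4 did not have that order of regions, and Lrig3 and Erbb2 were too dim to tell. These matches describe letters only.

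Among the receptors, no probe passed between target and ventral. Egfr, the receptor for EGF itself, has 4 probes on the array, and the brightest was above background on 9 of 9 arrays. This probe, 4010224, had levels of 7.08, 7.42 and 7.13 in dorsal, 6.74, 7.04 and 6.61 in target and 7.16, 7.05 and 6.76 in ventral. The ranges of target and ventral overlapped, and those of target and dorsal did not. The difference was -0.19 (SE 0.20, 95% interval -0.64 to 0.26, limma adjusted p = 0.700) for target minus ventral and -0.41 for target minus dorsal. The other tested probe of Egfr, 5090372, was above background on 6 of 9 arrays, and its means of 5.77 ± 0.59 in dorsal, 6.07 ± 0.32 in target and 5.93 ± 0.42 in ventral (SD, n = 3) came from overlapping ranges. The sign of its small target minus ventral difference, 0.14 (SE 0.33, limma adjusted p = 0.888), turned to -0.088 without ventral array 3 and to -0.047 without target array 1. The remaining 2 probes of Egfr, 4540382 and 1770292, were above background on 0 of 9 arrays.

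Erbb2, the receptor with no known ligand that serves as partner of the others, has 1 probe, 2230672, and it was above background on 0 of 9 arrays. Nothing can be said of its level in any region. Erbb3, which binds neuregulins but has little kinase activity of its own, was measured by probe 2900164 at 7.67, 6.13 and 6.34 in dorsal, 5.62, 7.22 and 7.24 in target and 6.13, 5.86 and 5.33 in ventral, with 6 of 9 arrays above background. The arrays within a region spread as widely as the regions, with mouse 1 highest in dorsal and lowest in target. The target minus ventral difference was 0.92 (SE 0.52, 95% interval -0.25 to 2.09, limma adjusted p = 0.438), and within the mice it was -0.50, 1.36 and 1.90.

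Erbb4, the neuregulin receptor found on many inhibitory neurons of the forebrain, was read by probe 2120561 at 6.22, 6.33 and 6.21 in dorsal, 6.25, 5.88 and 6.21 in target and 6.0, 5.30 and 5.56 in ventral. It was above background on all 6 arrays of dorsal and target and on 1 of 3 of ventral. Dorsal and ventral did not overlap, by a difference of 0.63 (SE 0.21). Target was higher than ventral in each of the 3 mice, by 0.25, 0.58 and 0.65, and the mean difference of 0.49 (SE 0.21, 95% interval 0.02 to 0.97) did not pass (limma adjusted p = 0.297). The other Erbb4 probe, 6650010, was above background on 2 of 9 arrays, both of dorsal, and was not tested.

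Of the LRIG proteins, Lrig1 had a lower level in target than in ventral. Lrig1, which acts as a brake on ErbB receptors, has 1 probe on the array, 3130020. It had levels of 5.65, 6.17 and 6.48 in dorsal, 7.79, 7.80 and 6.88 in target and 8.95, 9.33 and 9.10 in ventral, and 2 of the 3 dorsal arrays were above background. No range overlapped another, so the regions stood in the order dorsal, target, ventral on every array. The means were 6.10 ± 0.42, 7.49 ± 0.53 and 9.13 ± 0.19 (SD, n = 3). The difference was -3.03 for dorsal minus ventral (SE 0.30).

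Lrig1 was lower in target than in ventral by a factor of 3.11, with a difference of -1.64 (SE 0.30, 95% interval -2.32 to -0.95, limma adjusted p = 0.0346). It was lower in 3 of 3 mice, with differences of -1.16, -1.53 and -2.22. The call was lost in the fit blocked by mouse (limma adjusted p = 0.0710), with median centring (0.0729), with no filter on dim probes (0.0515) and in a fit of only target and ventral (0.0735). It was also lost on leaving out dorsal array 2 (limma adjusted p = 0.0565), any ventral array (0.0773 to 0.0964) or any target array (0.0710 to 0.108). The difference stayed between -1.79 and -1.34 whichever array was left out. Its size depended on the background correction, and without one the difference was -1.09. The factor of 3.11 therefore holds for the background-corrected scale only.

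Lrig2, a relative of Lrig1 in the same family, was above background on 9 of 9 arrays through probe 990735. Its means were 8.10 ± 0.32 in dorsal, 7.78 ± 0.30 in target and 8.09 ± 0.35 in ventral (SD, n = 3), with overlapping ranges. The difference of target from ventral was -0.31 (SE 0.26, 95% interval -0.89 to 0.28, limma adjusted p = 0.624). Lrig3 was above background on 1 of 9 arrays, of target, through probe 6650612, and was not tested.

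Of the docking proteins, Gab1 was lower in target than in ventral, and Gab2 did not pass. Gab1, which binds GRB2, the PI3 kinase subunit p85 and the phosphatase SHP2, has 1 probe, 7200678. Its levels were 4.87, 5.18 and 4.87 in dorsal, 6.54, 5.80 and 5.06 in target and 8.46, 8.53 and 8.50 in ventral. The ventral arrays lay close together and far above the rest, and the target arrays were spread out, with target array 3 inside the range of dorsal. On the linear scale before normalization the intensities were 140.1, 137.8 and 122.5 in dorsal, 210.5, 200.2 and 200.5 in target and 553.1, 591.9 and 442.1 in ventral.

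No dorsal array was above background for Gab1, so its level there is only a bound. Set against the lowest level above background on each dorsal array, ventral was at least 7.26-fold higher than dorsal on the background-corrected scale. That bound holds for this scale only, since without background correction the dorsal minus ventral difference was -1.68. The measured means were 4.97 ± 0.18 in dorsal, 5.80 ± 0.74 in target and 8.50 ± 0.04 in ventral (SD, n = 3), and 2 of the 3 target arrays were above background. Target and dorsal overlapped, and no fold between them is given since target array 3 was itself below background.

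The Gab1 difference for target minus ventral was -2.70 (SE 0.32, 95% interval -3.43 to -1.97), with a limma adjusted p of 0.0063, or 0.0186 when blocked by mouse. No fold is given here either, since target array 3 entered at its level below background. Gab1 was lower in target in 3 of 3 mice, with differences of -1.92, -2.73 and -3.44. It ranked 3 from the most negative among the tested probes in this pair of regions. Every alternative that tested this probe kept the call, with limma adjusted p between 0.0004 and 0.0325. Its size depended on the background correction, and without one the difference was -1.34. Leaving out target array 3, the lowest of the target arrays for Gab1 and Lrig1, gave -2.35 for Gab1 and -1.34 for Lrig1. That array also had the fewest probes above background in target, 16842 against 18668 and 19172, and the part of this in the result was not tested.

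Gab2, the relative of Gab1 that uses the same partners, was read by probe 5870274 at 8.02, 8.33 and 7.61 in dorsal, 7.69, 7.38 and 7.86 in target and 6.40, 6.91 and 6.60 in ventral. All 9 arrays were above background, and every ventral array lay under every array of the other regions. The difference was 1.35 (SE 0.24) for dorsal minus ventral. Target was higher than ventral in 3 of 3 mice, by 1.30, 0.47 and 1.26, with a mean difference of 1.01 (SE 0.24, 95% interval 0.47 to 1.55) that did not pass (limma adjusted p = 0.0737). It passed when only probes above background on all arrays were tested (0.0416), and gave 0.128 when blocked by mouse. The other 3 probes of Gab2 were above background on 0 of 9 arrays.

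Erbin has 2 tested probes, and they disagreed. Probe 5860575 had levels of 5.59, 6.86 and 6.90 in dorsal, 9.25, 8.68 and 9.07 in target and 10.17, 9.84 and 9.67 in ventral, with 2 of 3 dorsal arrays above background. The regions did not overlap. The difference was -3.44 for dorsal minus ventral and 2.55 for target minus dorsal (SE 0.35 for each). From target to ventral the step was smaller, -0.89 (SE 0.35, 95% interval -1.68 to -0.10), and did not pass (limma adjusted p = 0.257), except with no background correction and in the authors' quantile-normalized table (0.0338 in each).

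Probe 6330431, above background on 9 of 9 arrays, had 8.17, 8.49 and 8.28 in dorsal, 8.41, 7.74 and 8.56 in target and 7.46, 6.99 and 8.15 in ventral. Here ventral was the lowest region, and dorsal did not overlap with it. The differences were 0.78 (SE 0.32) for dorsal minus ventral and 0.71 (SE 0.32, limma adjusted p = 0.317) for target minus ventral. Taken within each array, probe 6330431 minus probe 5860575 was 2.58, 1.63 and 1.38 in dorsal, -0.85, -0.93 and -0.51 in target and -2.72, -2.85 and -1.52 in ventral, so the regions differed in this measure with no overlap. The lower level of Erbin in dorsal is therefore a measurement of 1 of its 2 probes. Gab1 and Lrig1 have no other probe on the array to set beside theirs.

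**Figure D2:**
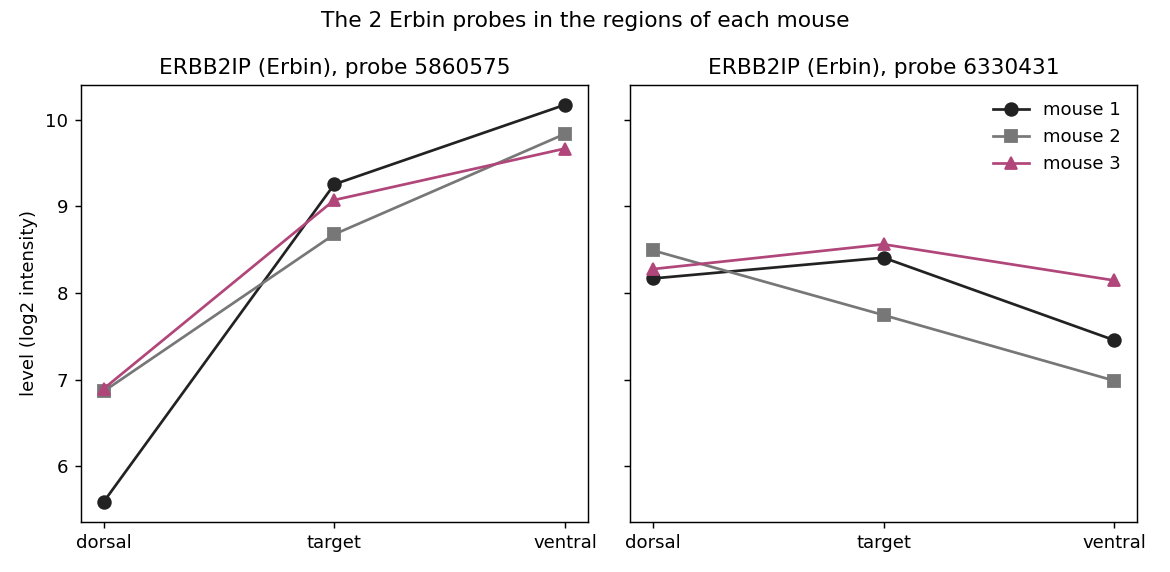
Log2 intensity of the 2 probes of Erbin in the 3 regions, with lines joining the regions of each mouse. Probe 5860575 rises from dorsal to ventral in all 3 mice, and probe 6330431 is lowest in ventral in all 3.

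Other genes on this array had probes that disagreed. Among 690 genes with a probe that passed between dorsal and ventral and another tested probe, that other probe went the same way in 365 (52.9%) and the opposite way in 325 (47.1%), and in 11 it passed in the opposite direction. For target and ventral the other probe went the same way in 85 of 160 such genes (53.1%), and for target and dorsal in 7 of 7. The sequences of the probes were not used here, so which transcripts each probe reads was not tested.

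Both contrasts with dorsal were used to choose the genes, so the counts of members past the limit there restate the choice and nothing is read from them. For dorsal minus ventral 4 of the 10 tested member probes were past it, beside 7.98% of all probes. They were the 3 probes that chose the set, lower in dorsal (3.92% of all probes were), and Gab2, higher in dorsal (4.06%). With arrays centred on their medians the count was 6, with 3 higher and 3 lower, beside 10.6% and 1.97% of all probes. For target minus dorsal the count was 0 of 10, beside 0.0586% of all probes (0.044% higher in target and 0.0147% lower), and 3 had an unadjusted limma p below 0.05, beside 9.60% of all probes. Between target and ventral the 2 that passed, Gab1 and Lrig1, were both lower in target (0.616% of all probes were, and 1.17% were higher), and 5 of 10 had an unadjusted limma p below 0.05, beside 15.99% of all probes. The median difference of the member probes was 0.11 for dorsal minus ventral, -0.05 for target minus dorsal and -0.03 for target minus ventral, and the medians of all probes were 0.04, -0.02 and 0.02. Members that were too dim to test are not in these counts.

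**Figure D3:**
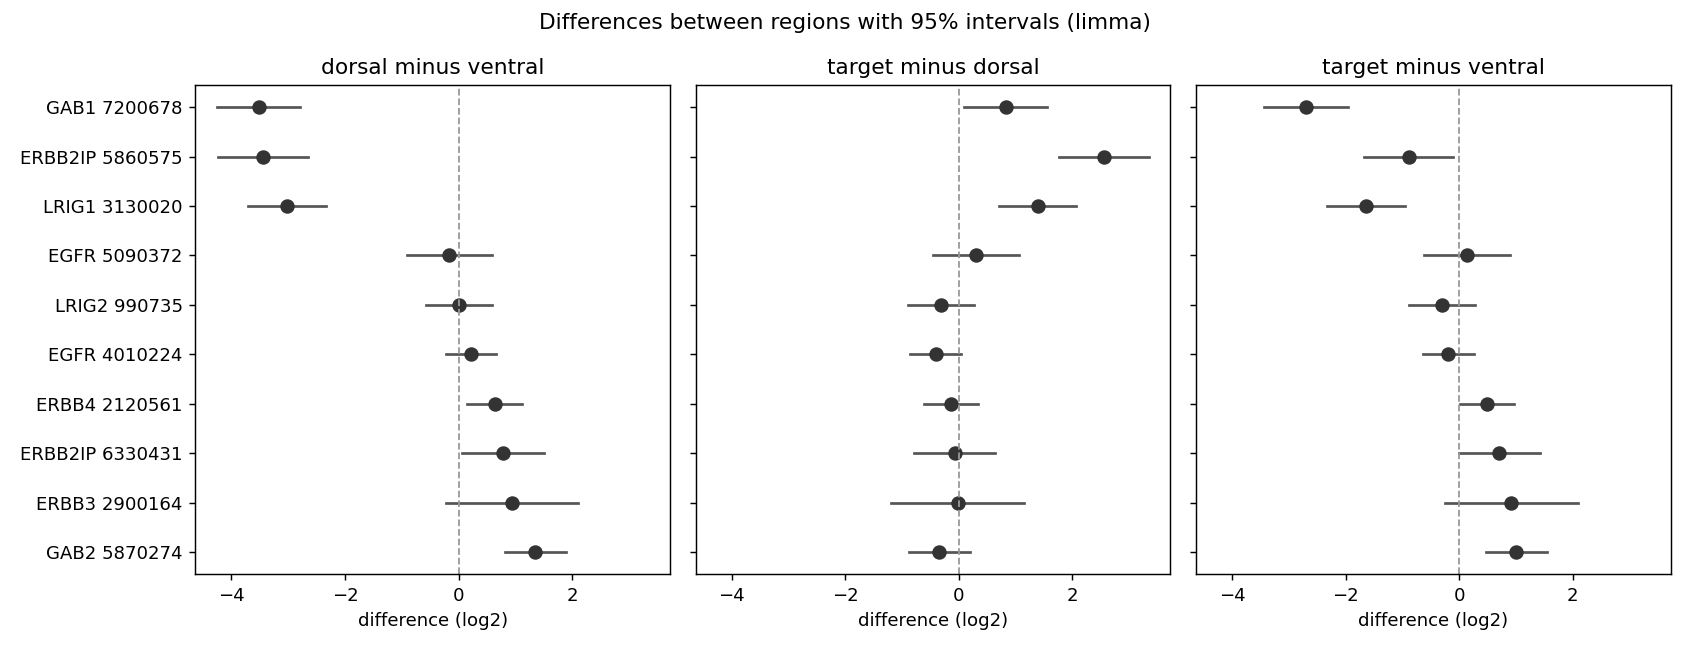
Differences between regions for each tested member probe on the log2 scale, with 95% intervals from limma. In both contrasts with dorsal the intervals are descriptive, since dorsal was used to choose the genes. GAB1, LRIG1 and ERBB2IP probe 5860575 stand apart from the other probes in dorsal minus ventral, and GAB1 at -2.70 and LRIG1 at -1.64 in target minus ventral.

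The 8 untested probes had levels of 4.59 to 6.14 on the array scale, and 6 of them were never above background. Each of the 18 member probes was read by 25 to 75 beads per array. The bead standard error was 2.59 to 7.70% of the intensity, with a median of 4.50%.

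Across the 9 arrays the probe most like that of Gab1 was Rasgrf1, an exchange factor of RAS, with a Pearson r of 0.987, followed by Prdx5, a peroxiredoxin (0.986), and Slc1a2, the glial glutamate transporter (0.982). For Lrig1 these were Ppil3 (0.992), Septin6 (0.983) and Tpd52 (0.983), and for Erbin probe 5860575 they were Chst2, a sulfotransferase (0.982), Cmpk2, a mitochondrial nucleotide kinase (0.977), and Ccdc117 (0.975). Among the members, Gab1 and Lrig1 correlated at 0.950, Gab1 and Erbin probe 5860575 at 0.802, and Lrig1 and that probe at 0.912. These 3 probes chose the set by being lower in dorsal, so high correlations among them follow from the choice and nothing is read from them. Erbin probe 6330431 ran against all 3, at -0.693 with Gab1, -0.694 with Lrig1 and -0.477 with the other Erbin probe. These values describe 9 arrays that fall into 3 regions and share 3 mice, and the most alike were picked from 20461 probes.

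Other genes of the pathway are given as counts beside the shares of all probes, and no result about the pathway is read from them. Of 94 genes in 8 lists, 69 were measured, each by its brightest tested probe. Between dorsal and ventral 3 of the 69 passed (4.35%, beside 7.98% of all probes), 2 higher in dorsal and 1 lower. In that contrast 8 (11.59%) had an unadjusted limma p below 0.05, beside 22.23% of all probes. For target minus dorsal 0 of 69 passed, beside 0.0586% of all probes. There 1 (1.45%) had an unadjusted limma p below 0.05, beside 9.60% of all probes. For target minus ventral 0 of 69 passed, beside 1.78% of all probes, with 11 (15.94%) at an unadjusted limma p below 0.05, beside 15.99% of all probes. With no background correction 5, 0 and 4 of the 69 passed in the 3 contrasts, beside 10.2%, 0.43% and 4.07% of all probes. Blocked by mouse 1, 0 and 0 passed, beside 6.58%, 0.0147% and 0.753%.

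Ligands and the proteases that release them came first in the pathway. Of the 11 EGF-family ligands 4 were measured, and 0 passed in any contrast, with medians of 0.29, -0.30 and -0.05 for dorsal minus ventral, target minus dorsal and target minus ventral. By the brightest probes Hbegf, a heparin-binding ligand of EGFR and ERBB4, had the largest difference, 0.42 for target minus ventral (SE 0.22, limma adjusted p = 0.387). Another tested probe of Nrg1 was at 0.68 for dorsal minus ventral, where the brightest was at 0.05. Of the 5 sheddases 4 were measured and 0 passed by the brightest probe. The probes of Adam17 disagreed. The brightest was at -0.36 for dorsal minus ventral and 0.10 for target minus dorsal, and the other tested probe at 1.61 and -1.14. Bace1, the beta-secretase that also cleaves neuregulin, was at -1.17 for target minus ventral (SE 0.28, limma adjusted p = 0.0783). Its limma adjusted p was 0.0497 with no background correction and 0.134 blocked by mouse, and its other tested probe was at -0.40. The list median for target minus ventral was -0.68.

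Regulators and adaptors acting on the receptors gave no passing gene either. Of 15 genes for receptor degradation and feedback 13 were measured, with medians of 0.04, -0.02 and 0.06 in the 3 contrasts. Errfi1, an inhibitor of the EGFR kinase that is induced by signalling, was at -1.05 for dorsal minus ventral (SE 0.28, limma adjusted p = 0.0542). Its limma adjusted p was 0.0159 with no background correction and 0.103 blocked by mouse. Of 15 adaptors 11 were measured, with medians of 0.07, -0.10 and -0.08. Shc4, an SHC adaptor, was at -0.87 for target minus ventral (SE 0.32, limma adjusted p = 0.220).

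The 3 passing genes were in the lists of RAS-ERK, PI3K-AKT, and LAP family and Erbin partners, with 1 in each. Of 14 RAS-ERK genes 13 were measured, and Nf1, which switches RAS off, was higher in dorsal than in ventral by 2.04 (SE 0.51, limma adjusted p = 0.0403, and 0.0576 blocked by mouse). Its ventral level was above background on 2 of 3 arrays, and another Nf1 probe was at -1.30. Of 14 PI3K-AKT genes 11 were measured, and 1 passed (0 blocked by mouse). Of 7 LAP family genes and Erbin partners 5 were measured, and Ctnnd2, a delta-catenin, was higher in dorsal by 0.93 (SE 0.17, limma adjusted p = 0.0099, and 0.0275 blocked by mouse), with its other probes at -0.16 and -0.28. The medians for dorsal minus ventral were -0.06, -0.03 and 0.01 in these lists.

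Other receptor tyrosine kinases served as a comparison for the ErbB receptors. Of 13 such genes 8 were measured and 0 passed, with medians of 0.08, 0.02 and 0.11 for dorsal minus ventral, target minus dorsal and target minus ventral. Fgfr1, a fibroblast growth factor receptor, was at 0.68 for target minus ventral (SE 0.23, limma adjusted p = 0.185).

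**Figure D4:**
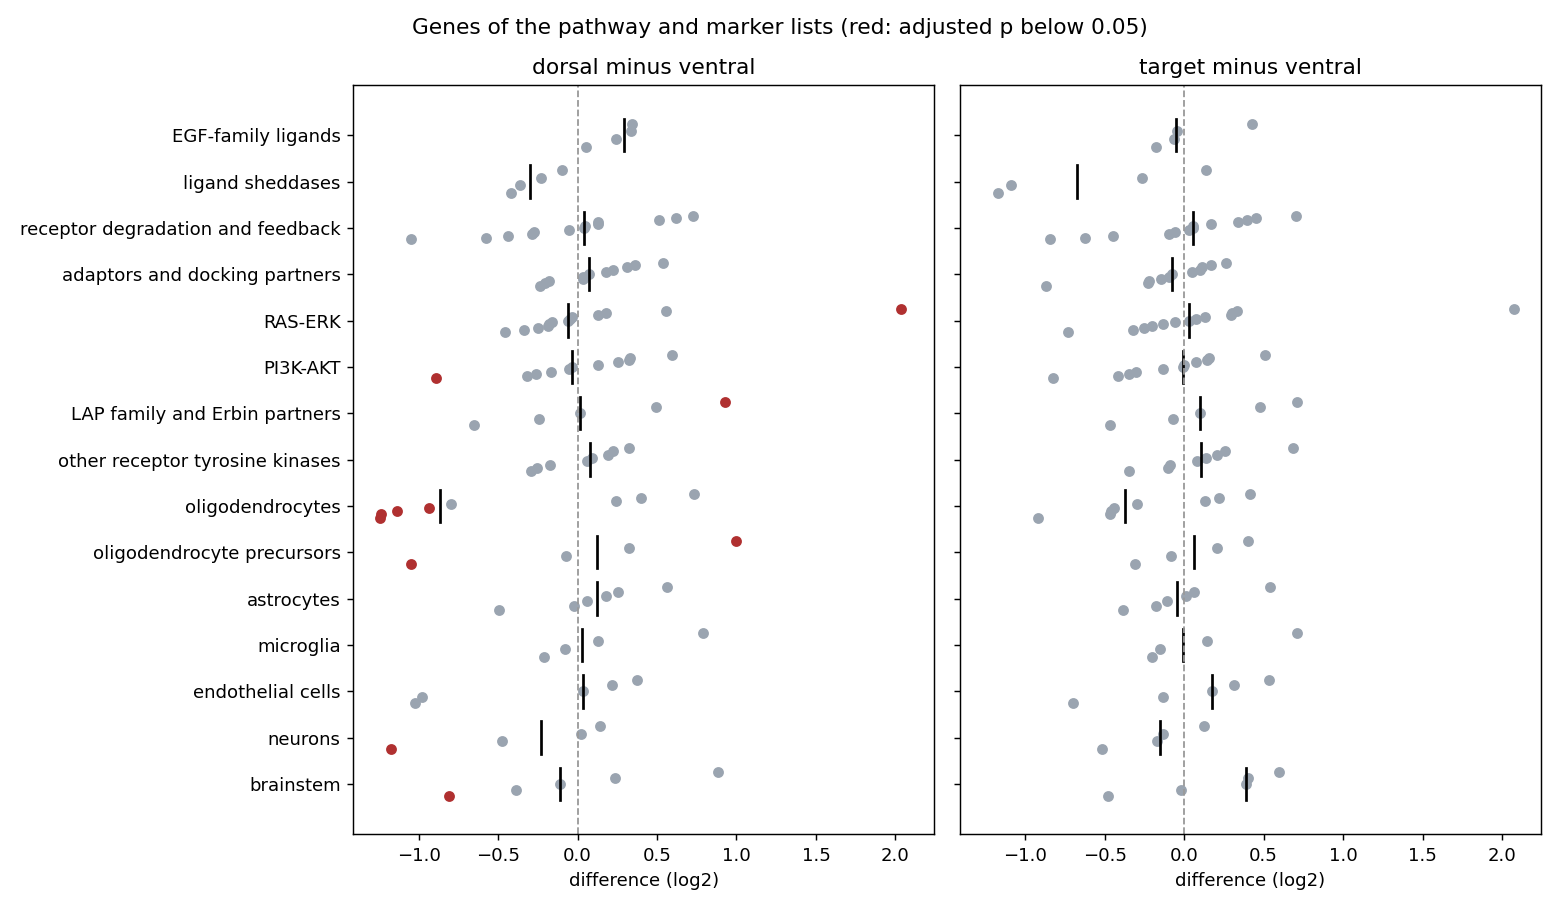
Difference between regions of each measured gene in the pathway and marker lists on the log2 scale, for dorsal minus ventral and target minus ventral, in red where the limma adjusted p is below 0.05, with a black bar for the median of each list. The pathway medians lie between -0.30 and 0.29 apart from the sheddases, at -0.68 for target minus ventral, and the oligodendrocyte median is -0.86 for dorsal minus ventral.

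Several myelin genes were lower in dorsal as well. All 8 oligodendrocyte markers were measured, and their mean level was 11.20 to 11.50 on the dorsal arrays, 11.54 to 11.71 on the target arrays and 11.78 to 11.96 on the ventral arrays, the same order of regions. Between dorsal and ventral 4 of the 8 were lower in dorsal and passed, beside 3.92% of all probes. Among them were the myelin genes Mbp (-0.93), Mobp (-1.14) and Cldn11 (-1.24), with limma adjusted p from 0.0034 to 0.0071 for these 3. Mog and Mag, also of myelin, were at 0.73 and 0.24 and did not pass, and other probes of Mbp and Mobp ran from -0.31 to 0.62. Between target and ventral 0 of the 8 passed, beside 1.78% of all probes, and the median was -0.37. There 4 had an unadjusted limma p below 0.05, beside 15.99% of all probes. Of 5 genes of oligodendrocyte precursors 4 were measured, and in dorsal Cspg4 was higher (1.0) and Sox10 lower (-1.05) than in ventral. By the brightest tested probe of each gene, none of the 6 astrocyte, 4 microglia and 5 endothelial genes measured passed between dorsal and ventral. Of these, 2, 1 and 1 had an unadjusted limma p below 0.05, beside 22.23% of all probes. Slc1a2 is in the astrocyte list, and its probe named above as like Gab1 had the same order of regions. That probe had means of 10.12 in dorsal, 10.46 in target and 11.34 in ventral. Of 4 neuronal genes measured Stmn2 was lower in dorsal (-1.17), and of 5 brainstem genes Slc6a5, the glycine transporter of inhibitory neurons, was lower in dorsal (-0.81). In the brainstem list 1 of 5 genes passed between dorsal and ventral, beside 7.98% of all probes, and 0 when blocked by mouse, beside 6.58%. The part of these cell types in the differences of Gab1, Lrig1 and Erbin was not tested.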

How the data were processed

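Per the labels' protocols, RNA was purified on miRNeasy Micro columns and amplified into biotinylated cRNA with the TotalPrep chemistry of Illumina. Per the file headers, the authors used GenomeStudio 1.6.0 to export bead intensities on a linear scale, raw in 1 table and quantile-normalized in another. That deposited export also holds a detection score, whose complement to 1 served as the detection p, the spread over beads, and the count of beads (a median of 43 to 45 per probe). A further deposited table and the series matrix equalled these intensities (largest difference 0), so the series matrix is linear, with medians of 182.3 to 182.5 per column and no centring. No 2 columns were identical, and 0 columns of values had no sample.

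Log2 levels are not from the authors: they were computed here from their deposited raw intensities, using limma 3.58.1 under R 4.3.3. The neqc steps were background correction by normexp (negative controls inferred from the detection p, offset 16), quantile normalization and log2. Probes below a detection p of 0.05 on at least 3 of 9 arrays entered lmFit and eBayes, with region as the term and all arrays fitted together. Benjamini-Hochberg adjustment ran over the 20461 probes. The fit and the adjustment were tested on simulated log2 values, and the background correction, normalization and filter were not. Neither labels nor column names give a chip or batch, and the number of arrays limits the precision. Where a probe was below background on every array of a region, each of those arrays entered the bound at its own level or at the dimmest level above background, whichever was higher.

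The members, the lists and the tests were chosen with earlier results of these data known. The target minus ventral differences of Gab1 and Erbin were among those results, so they are not independent support. Named were all member probes, up to 3 passing genes of each pathway list per contrast (or, with none, the gene with the largest difference), and the 3 probes most correlated with the brightest tested probe of Gab1, Lrig1 and Erbin (clone-named and predicted loci left out). Marker genes were picked from their lists after their values were seen. A few genes that these rules take are not reported here. Of the array's probe names, 27760 were symbols in RefSeq's gene table for GRCm38.p6, 8035 were synonyms there and were updated, and 9486 stayed as they were.

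The column names number the mice, per the file headers, which is where the pairing comes from. Arrays of the same mouse deviated from their region means with correlations from -0.10 to 0.15 (median 0.03), and arrays of different mice with correlations from -0.16 to 0.22 (median -0.01). Alternatives were the fit blocked by mouse, no background correction, median centring, the authors' quantile table, an offset of 50, 2 other filters, a fit of only the regions compared, and leaving out each array.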

Additional observations from a re-analysis of the deposited data

How the results depend on the processing

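The directions of Gab1 and Lrig1 between target and ventral held under every alternative that tested them. Passing probes between dorsal and ventral numbered 2563 with median centring. Between target and dorsal they numbered 88 with no background correction and in the authors' quantile table, 46 with offset 50, 20 with no filter, 42 among probes above background on all arrays, 3 with the replicate block and 1 with only the regions compared. For target and ventral they numbered 833 with no background correction, 832 in the authors' table, 557 with offset 50, 178 with median centring, 154 with the replicate block and 123 with only the regions compared. The contrasts with dorsal chose the members, so their member counts show nothing about stability. Past the limit between dorsal and ventral were 6 of 10 tested member probes with median centring, beside 12.5% of all probes. Among probes above background on all arrays it was 1 of 4, where Gab1, Lrig1 and Erbin probe 5860575 are not tested. For target and dorsal it was 1 of 10 with no background correction (beside 0.43% of all probes), in the authors' table and with offset 50. Between target and ventral Gab1 alone passed, 1 of 10 tested member probes, with median centring, the replicate block and only the regions compared. All probes passed at 0.87% with median centring and 0.753% with the replicate block. With no filter it was again Gab1, 1 of 18, with 324 passing over all probes. Among probes above background on all arrays it was Gab2, 1 of 4, with 477 passing over all such probes. Gab1 and Lrig1 are not tested there. Lrig1 had a limma adjusted p of 0.0729 with median centring, 0.0515 with no filter, 0.0710 with the replicate block and 0.0735 with only the regions compared.

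Leaving out 1 array left 939 to 1452 passing probes between dorsal and ventral, 1 to 3 between target and dorsal and 64 to 302 between target and ventral, with the fewest without dorsal array 2 in the first and without target array 3 in the others. Member probes passing between target and ventral then numbered 1 to 2 of the 10 tested. The target minus ventral difference of Egfr probe 5090372 ran from -0.088 (without ventral array 3) to 0.34 (without ventral array 2), and was -0.047 without target array 1. The cause of these changes was not tested. The chip as a block was not run, since the column names give no chip. Probes near background, which include Gab1 in dorsal, have levels that the background correction sets.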
